A study of Mus musculus with 8 samples.

Results

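The mRNAs of 9 dual-specificity MAP kinase phosphatases (Dusp1, Dusp2, Dusp3, Dusp4, Dusp5, Dusp6, Dusp8, Dusp10 and Dusp16) were followed in primary murine microglia with and without lipopolysaccharide (LPS). The 9 genes were picked by name as members of this enzyme family and found among the 52636 Ensembl genes of the deposited count table through their GENCODE vM21 symbols. All cells were wild-type microglia, of strain C57BL/6 in the labels and from C57BL/6N pups in the methods, shaken off mixed glial cultures made from brains in the first days after birth and kept in medium with serum and the growth factor CSF-1. One group received vehicle and the other 5 µg/ml LPS, a component of the bacterial outer membrane, and RNA was taken after 24 h from 4 libraries per group, which the labels number as biological replicates 1 to 4. Whether the 4 came from separate animals or cultures is not given in the sources used here, so the p-values below measure the spread between these libraries.

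MAP kinases (ERK, JNK and p38) are switched on when a threonine and a tyrosine of their activation loop are phosphorylated by a MAP kinase kinase. Dual-specificity MAP kinase phosphatases remove both phosphates, and many of their genes are themselves transcribed in response to MAP kinase signalling, which makes them classical feedback inhibitors. In macrophages and microglia LPS is sensed by Toll-like receptor 4, which feeds into all 3 MAP kinase branches. Within the family, Dusp1, Dusp2, Dusp4 and Dusp5 are inducible nuclear enzymes, Dusp6 is a cytoplasmic ERK phosphatase, and Dusp8, Dusp10 and Dusp16 prefer JNK and p38. Dusp3 is a small phosphatase that lacks the kinase interaction domain of the others.

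The libraries held 21370879 to 26129375 counts in the vehicle group and 20071921 to 30604447 in the LPS group. Levels are given as CPM, the count of a gene over the TMM-adjusted library size, and changes as the log2 fold change of LPS over vehicle with its standard error (SE) and the Benjamini-Hochberg adjusted p of edgeR's quasi-likelihood test over 13847 genes. LPS changed most of the transcriptome, with 4191 genes higher and 4686 lower. The TMM factors were 1.21 to 1.32 in vehicle and 0.701 to 0.833 in LPS libraries, and without them, scaled to library totals alone, 1988 genes were higher and 8457 lower. Of 13 microglial marker genes all were detected, and their summed level was 13356 to 16398 CPM in vehicle and 4019 to 4488 CPM in LPS libraries, with 10 lower and 1 higher. Markers of other cell types were far lower, and some moved with LPS. The 6 oligodendrocyte precursor markers summed to 18.3 to 82.1 CPM in vehicle and 1.87 to 20.8 CPM in LPS libraries (3 of 5 tested lower), and the 6 neuronal markers to 6.47 to 19.0 CPM and 2.43 to 9.34 CPM (3 of 4 tested lower). The 8 astrocyte markers summed to 20.01 to 46.9 CPM and 41.0 to 123 CPM, a rise carried by Gja1 (0.873 to 48.6 CPM on average), while Gfap, Aqp4 and Aldh1l1 were lower. The 6 endothelial markers summed to 31.1 to 73.5 CPM and 163 to 254 CPM with all 3 tested ones higher, but Cldn5, Tek and Esam had at most 3 counts in any library. The 6 oligodendrocyte markers summed to 150 to 205 CPM in vehicle and 188 to 237 CPM in LPS libraries with Mobp at 0, where Mbp was lower (84.0 to 15.3 CPM on average) and Cnp higher (88.6 to 195 CPM). The 6 fibroblast markers summed to 0.497 to 4.31 CPM and 5.30 to 21.4 CPM, mostly through Dcn (0.136 to 8.90 CPM on average), while Col1a1, Col1a2 and Col3a1 went from 65, 48 and 35 counts over the vehicle libraries to 7, 2 and 2 over the LPS libraries. The 6 markers of other leukocytes stayed at or below 1.09 CPM in sum, and Cd3e, Cd3g, Cd79a and Ly6g had at most 3 counts in any library. The part of these markers in the results below was not tested, and in bulk RNA fewer cells of a type and less RNA per cell cannot be told apart.

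All 9 phosphatases passed the filter on low counts and all 9 passed the test, 7 higher and 2 lower after LPS. Of all genes tested 64.1% passed, 30.3% higher and 33.8% lower, so that a call by itself was common in these data. For each of the 9 the 4 vehicle and 4 LPS libraries did not overlap in CPM, which held for 60.2% of all genes tested. The size of the rises was less common. The median log2 fold change of the 9 was 3.42 against -0.11 for all genes tested, and 4 of the 9 rose by more than 4 on the log2 scale, as did 363 genes or 2.62% of all tested. Relative to the median of all genes, the 9 changes ran from -0.93 (Dusp3) to 6.78 (Dusp2).

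**Figure D1:**
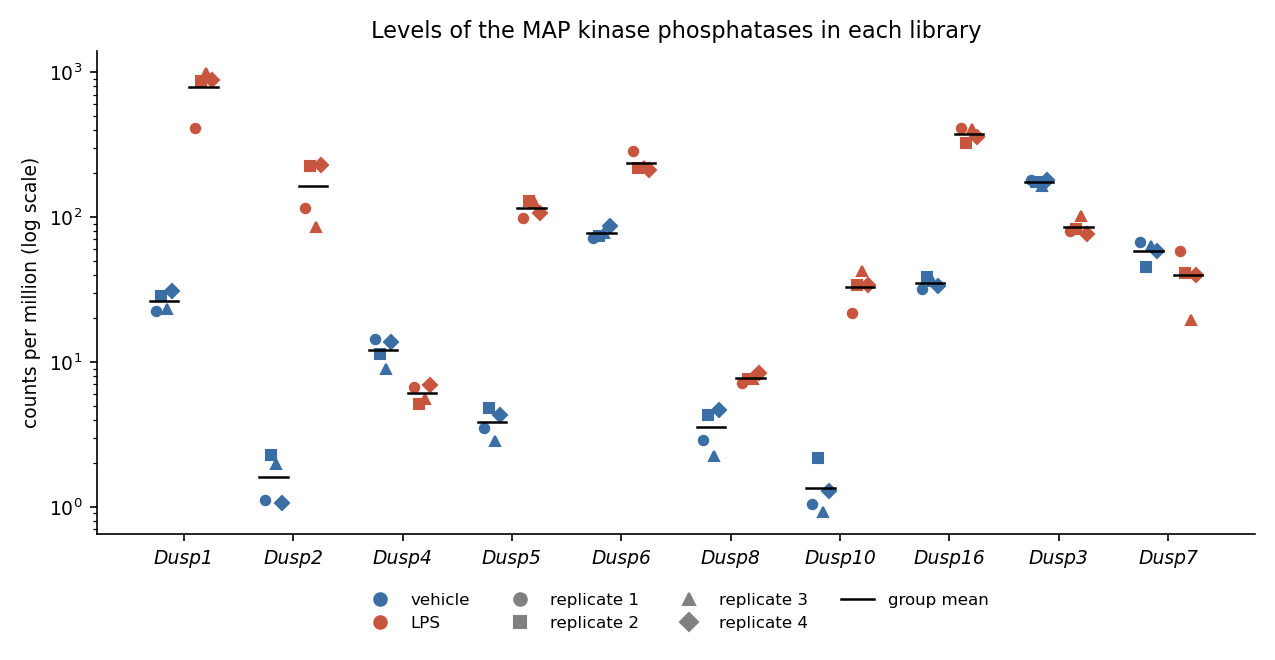
Level of each phosphatase in each library, in CPM on a log axis, with vehicle in blue, LPS in red, 1 symbol per replicate number and black lines for the group means. The 4 LPS libraries lie above the 4 vehicle libraries for Dusp1, Dusp2, Dusp5, Dusp6, Dusp8, Dusp10 and Dusp16 and below them for Dusp4 and Dusp3, while the groups overlap for Dusp7, which is not among the 9 genes.

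The sequences before the gene starts are shown first, since many phosphatase genes of this family are known as immediate-early genes. RefSeq windows of the 250 bases before the start (GRCm38.p6) were at hand for 8 of the 9 genes, all but Dusp4. Bases inside an annotated exon of the gene itself were left out of the print. The windows of Dusp1, Dusp3, Dusp8 and Dusp10 lie within the gene spans of GENCODE vM21, which reach further upstream than the RefSeq start. Sequence before those other starts was not searched. The windows are given 5′ to 3′ on the strand of the gene, with motif matches in capitals. Those of Dusp1 (chr17:26508520-26508722, minus strand), Dusp5 (chr19:53528895-53529108, plus strand), Dusp8 (chr7:142095285-142095534, minus strand) and Dusp16 (chr6:134792629-134792878, minus strand) are shown because they held a match, that of Dusp2 (chr2:127335909-127336158, plus strand) as the gene with the largest rise and that of Dusp3 (chr11:101984800-101985041, minus strand) as one that fell.
Dusp1: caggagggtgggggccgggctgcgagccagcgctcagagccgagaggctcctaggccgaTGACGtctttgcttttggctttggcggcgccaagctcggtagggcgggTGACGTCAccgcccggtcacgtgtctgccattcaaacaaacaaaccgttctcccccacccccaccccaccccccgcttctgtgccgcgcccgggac
Dusp5: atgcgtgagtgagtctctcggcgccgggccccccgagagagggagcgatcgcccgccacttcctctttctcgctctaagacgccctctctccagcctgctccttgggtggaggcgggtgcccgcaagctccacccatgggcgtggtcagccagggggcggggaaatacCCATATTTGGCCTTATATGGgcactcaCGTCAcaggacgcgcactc
Dusp8: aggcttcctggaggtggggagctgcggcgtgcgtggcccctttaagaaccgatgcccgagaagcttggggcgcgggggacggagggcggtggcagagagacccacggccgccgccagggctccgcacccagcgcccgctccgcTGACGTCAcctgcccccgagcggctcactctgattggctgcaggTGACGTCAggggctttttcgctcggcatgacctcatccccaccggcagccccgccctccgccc
Dusp16: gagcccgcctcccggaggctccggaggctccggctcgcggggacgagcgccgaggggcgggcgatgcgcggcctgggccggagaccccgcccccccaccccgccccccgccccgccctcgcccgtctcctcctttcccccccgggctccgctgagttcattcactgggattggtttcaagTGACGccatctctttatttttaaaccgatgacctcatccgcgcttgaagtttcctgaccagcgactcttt
Dusp2: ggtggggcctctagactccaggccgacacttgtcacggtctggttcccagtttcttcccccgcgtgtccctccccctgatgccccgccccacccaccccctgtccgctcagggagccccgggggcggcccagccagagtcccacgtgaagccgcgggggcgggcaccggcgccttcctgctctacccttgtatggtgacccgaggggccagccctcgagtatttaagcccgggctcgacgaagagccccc
Dusp3: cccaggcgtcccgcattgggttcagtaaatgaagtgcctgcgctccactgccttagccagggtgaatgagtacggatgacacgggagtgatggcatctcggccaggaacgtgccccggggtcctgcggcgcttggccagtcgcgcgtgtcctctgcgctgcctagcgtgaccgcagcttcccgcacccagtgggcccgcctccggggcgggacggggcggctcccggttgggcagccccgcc

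The motifs searched, on both strands, were the cAMP response element (CRE, TGACGTCA), its half-site (TGACG, of which a full CRE holds 1 on each strand), the AP-1 site (TGANTCA), the CArG box, the kappa B site and the TATA box (TATAAA). Dusp1 held 1 full CRE, from base -143 to base -136 counted from the start, and a separate half-site from -191 to -187. Dusp8 held 2 full CREs, from -107 to -100 and from -63 to -56. A full CRE was found in 1.55% of 32851 RefSeq windows of the same length and 2 or more in 0.0304%. Dusp5 held 2 adjoining CArG boxes, the element bound by serum response factor, from -82 to -73 and from -72 to -63, and a half-site from -55 to -51. At least 1 CArG box was found in 1.47% of all windows and 2 or more in 0.0183%. Dusp16 held a half-site from -70 to -66, as did 17.8% of all windows at any place. None of the 6 motifs was found in the windows of Dusp2, Dusp3, Dusp6 and Dusp10. The AP-1 site (6.75% of all windows), the kappa B site (7.25%) and the TATA box (12.4%) were in none of the 8 windows. These matches are descriptions of letters, and binding was not measured here. CRE matches thus stood before one of the largest risers, Dusp1, and before Dusp8, whose change was the smallest of the 7 rises.

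**Figure D2:**
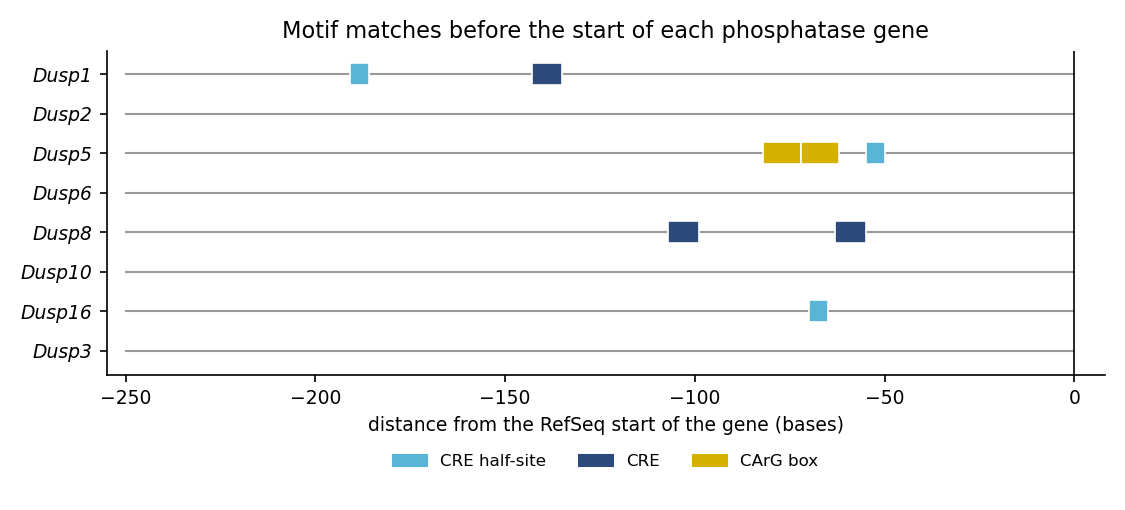
Motif matches in the 250 bases before the RefSeq start of the 8 phosphatase genes with a window, with the distance from the start in bases on the horizontal axis. Dark blue boxes mark the full CRE (1 in Dusp1, 2 in Dusp8), light blue boxes a half-site outside a full CRE and yellow boxes the 2 adjoining CArG boxes of Dusp5.

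Among the inducible nuclear phosphatases, Dusp1, Dusp2 and Dusp5 rose and Dusp4 fell. Dusp1 (ENSMUSG00000024190, chr17:26505590-26562128, minus strand) encodes MKP-1, which dephosphorylates p38 and JNK and is known to limit cytokine production in macrophages. Its level was 22.6, 28.7, 23.2 and 30.7 CPM in vehicle libraries 1 to 4 and 412, 867, 991 and 880 CPM in LPS libraries 1 to 4. LPS library 1 was well below the other LPS libraries but far above every vehicle library. From 26.3 ± 4.02 CPM (SD, n = 4) to 788 ± 256 CPM the change was 4.90 on the log2 scale (SE 0.29, edgeR adjusted p = 9.47e-07), or 29.9-fold.

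Dusp2 (ENSMUSG00000027368, chr2:127336159-127338376, plus strand) encodes PAC-1, a nuclear phosphatase known from activated leukocytes. It was low in vehicle, with 1.12, 2.28, 1.97 and 1.07 CPM (30 to 66 counts per library), and reached 115, 227, 85.6 and 230 CPM after LPS. LPS libraries 2 and 4 were similar and libraries 1 and 3 lower, so that the spread within the LPS group (SD 74.8 CPM around a mean of 164) was wide. The change was 6.67 (SE 0.44, edgeR adjusted p = 1.73e-06), about 102-fold, the largest of the 9, and 0.888% of all genes tested rose at least as much.

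Dusp5 (ENSMUSG00000034765, chr19:53529109-53542431, plus strand) encodes a nuclear phosphatase that is selective for ERK. Vehicle libraries held 3.50, 4.77, 2.82 and 4.33 CPM and LPS libraries 98.6, 129, 126 and 107 CPM. The LPS libraries lay close together, with an SD of 14.7 CPM around 115. The change of 4.90 (SE 0.19, edgeR adjusted p = 1.05e-07) equalled that of Dusp1 to the second decimal with a smaller error. The gene overlaps AC137853.2 on the opposite strand over 22.1% of its exonic bases, and whether counting used the strand is not given in the sources used here, so reads from that stretch cannot be told apart.

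Dusp4 (ENSMUSG00000031530, chr8:34807297-34819894, plus strand), which encodes MKP-2, a close relative of MKP-1, went the other way. It stood at 14.4, 11.4, 8.94 and 13.7 CPM in vehicle and at 6.76, 5.12, 5.55 and 6.92 CPM in LPS libraries. The highest LPS library (6.92 CPM) was below the lowest vehicle library (8.94 CPM). The change was -0.99 (SE 0.19, edgeR adjusted p = 0.00112).

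Dusp6 (ENSMUSG00000019960, chr10:99263231-99267489, plus strand) encodes MKP-3, the cytoplasmic phosphatase of ERK, whose mRNA is widely used as a readout of ERK activity. It was already well expressed in vehicle, with 72.0, 73.5, 77.4 and 86.5 CPM, and reached 284, 219, 226 and 210 CPM after LPS. LPS library 1, the lowest of its group for Dusp1, was the highest for Dusp6. The rise was 1.60 (SE 0.13, edgeR adjusted p = 4.69e-06), about 3.04-fold. It was moderate beside those of Dusp1, Dusp2 and Dusp5, and 9.42% of all genes tested rose at least as much.

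The 3 phosphatases that prefer JNK and p38 all rose, by very different amounts. Dusp16 (ENSMUSG00000030203, chr6:134715468-134792625, minus strand) encodes MKP-7, a JNK phosphatase that moves between nucleus and cytoplasm. Its level was 32.0, 38.4, 36.1 and 33.2 CPM in vehicle and 410, 323, 405 and 359 CPM in LPS libraries. Both groups were tight, with SDs of 2.89 and 41.0 CPM, and the rise of 3.42 (SE 0.13, edgeR adjusted p = 9.7e-08) had the smallest adjusted p of the 9.

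Dusp10 (ENSMUSG00000039384, chr1:184013302-184075636, plus strand) encodes MKP-5, which acts on p38 and JNK and restrains cytokine responses of innate and adaptive immune cells. It was barely expressed in vehicle, with 1.05, 2.18, 0.920 and 1.28 CPM (29 to 63 counts per library), and stood at 21.7, 33.7, 42.7 and 33.9 CPM after LPS. As for Dusp1, LPS library 1 was the lowest and library 3 the highest of the group. The rise was 4.60 (SE 0.31, edgeR adjusted p = 1.91e-06), about 24.3-fold.

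Dusp8 (ENSMUSG00000037887, chr7:142079490-142095843, minus strand) encodes a JNK and p38 phosphatase that is known mostly from heart and brain. It remained low, with 2.91, 4.32, 2.25 and 4.65 CPM in vehicle and 7.12, 7.68, 7.65 and 8.38 CPM after LPS. The LPS libraries were the more even of the groups (SD 0.519 against 1.14 CPM). The rise of 1.13 (SE 0.24, edgeR adjusted p = 0.00222) was the smallest of the 7 and depended on the scaling. With library totals alone, where the median of all genes was -0.79, it was 0.44 with an edgeR adjusted p of 0.15.

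Dusp3 (ENSMUSG00000003518, chr11:101971143-101987013, minus strand) encodes VHR, a small phosphatase of ERK and JNK that is present in most cells. It was the most abundant of the 9 in vehicle and fell with LPS, from 180, 176, 165 and 181 CPM to 79.8, 83.2, 102 and 76.7 CPM. LPS library 3 was the highest of its group and still below the lowest vehicle library. The change was -1.04 (SE 0.11, edgeR adjusted p = 3.45e-05), which left the level 2.05-fold lower. An opposite-strand gene, Gm20659, overlaps 12.9% of its exonic bases but had 0 counts in every library.

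**Figure D3:**
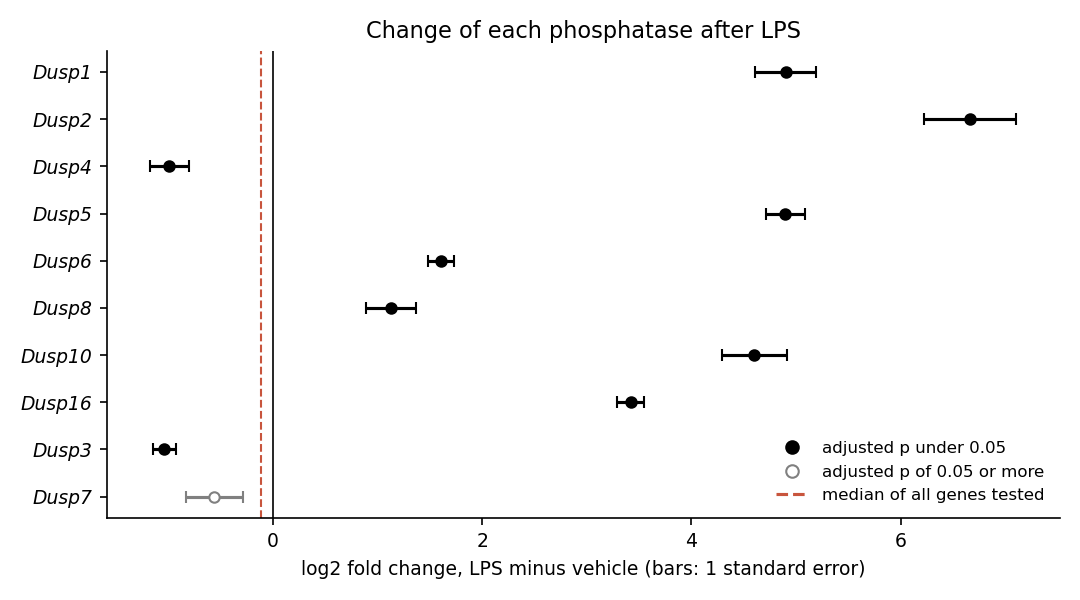
Log2 fold change of LPS over vehicle for each phosphatase, with bars of 1 standard error from the edgeR fit on 4 against 4 libraries and a dashed line at the median of all genes tested (-0.11). Changes run from -1.04 (Dusp3) to 6.67 (Dusp2), filled points passed the test and the open point, Dusp7 at -0.56, did not.

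The remaining classical phosphatases of the family were Dusp7 and Dusp9, which like Dusp6 are cytoplasmic and selective for ERK. Dusp7 stood at 67.0, 45.5, 63.3 and 58.1 CPM in vehicle and at 58.4, 41.2, 19.6 and 39.8 CPM in LPS libraries. The groups overlapped, LPS library 3 was far below the others, and the change of -0.56 (SE 0.28, edgeR adjusted p = 0.101) did not pass the test. Without LPS replicate 1 it was -0.80 with an adjusted p of 0.0233, and with library totals alone -1.20 with 0.0063. Dusp9 was too low to be tested, with 42 counts over the vehicle libraries and 4 over the LPS libraries. Scaled to library size, that is a ratio of vehicle to LPS of 6.72 (95% interval 2.44 to 25.8, covering counting error only).

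Levels of different genes were compared per kilobase of exon. In vehicle libraries the order was Dusp3 at 37.5 ± 1.58 CPM per kilobase (SD, n = 4), Dusp6 at 24.7 ± 2.07, Dusp1 at 7.95 ± 1.21, Dusp16 at 4.48 ± 0.371, Dusp4 at 4.41 ± 0.893, Dusp5 at 1.56 ± 0.351, Dusp2 at 0.803 ± 0.305, Dusp8 at 0.726 ± 0.234 and Dusp10 at 0.446 ± 0.187. The ranges of the libraries overlapped between Dusp16 and Dusp4, between Dusp2 and Dusp8, and between Dusp8 and Dusp10, and between no other neighbours. After LPS the order was Dusp1 at 238 ± 77.4, Dusp2 at 82.1 ± 37.4, Dusp6 at 75.0 ± 10.7, Dusp16 at 48.0 ± 5.26, Dusp5 at 46.6 ± 5.96, Dusp3 at 18.2 ± 2.43, Dusp10 at 10.9 ± 2.83, Dusp4 at 2.22 ± 0.325 and Dusp8 at 1.58 ± 0.106 CPM per kilobase. Among neighbours the ranges here overlapped between Dusp2 and Dusp6 and between Dusp16 and Dusp5. The wide range of Dusp2 (42.7 to 115) also overlapped those of Dusp16 (41.4 to 52.5) and Dusp5 (39.9 to 52.1). Dusp3 thus moved from the first to the sixth place and Dusp1 from the third to the first.

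The summed level of the 9 was 82.5 ± 4.56 CPM per kilobase in vehicle and 522 ± 86.3 after LPS, and without Dusp1 it was 74.6 ± 3.49 and 285 ± 25.4. Dusp3 made up 45.4% ± 1.71 (SD, n = 4) of the sum in vehicle and 3.56% ± 0.681 after LPS, although its own level fell only 2.05-fold. Dusp6 went from 29.9% ± 1.86 to 15.03% ± 5.38 of the sum while its level rose. Dusp1 went from 9.60% ± 1.00 to 44.5% ± 9.28 and Dusp2 from 0.981% ± 0.389 to 15.6% ± 5.84. In LPS library 1 the share of Dusp1 was 31.6% and that of Dusp6 23.1%, against 45.9% to 53.8% and 11.8% to 13.0% in the other 3.

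**Figure D4:**
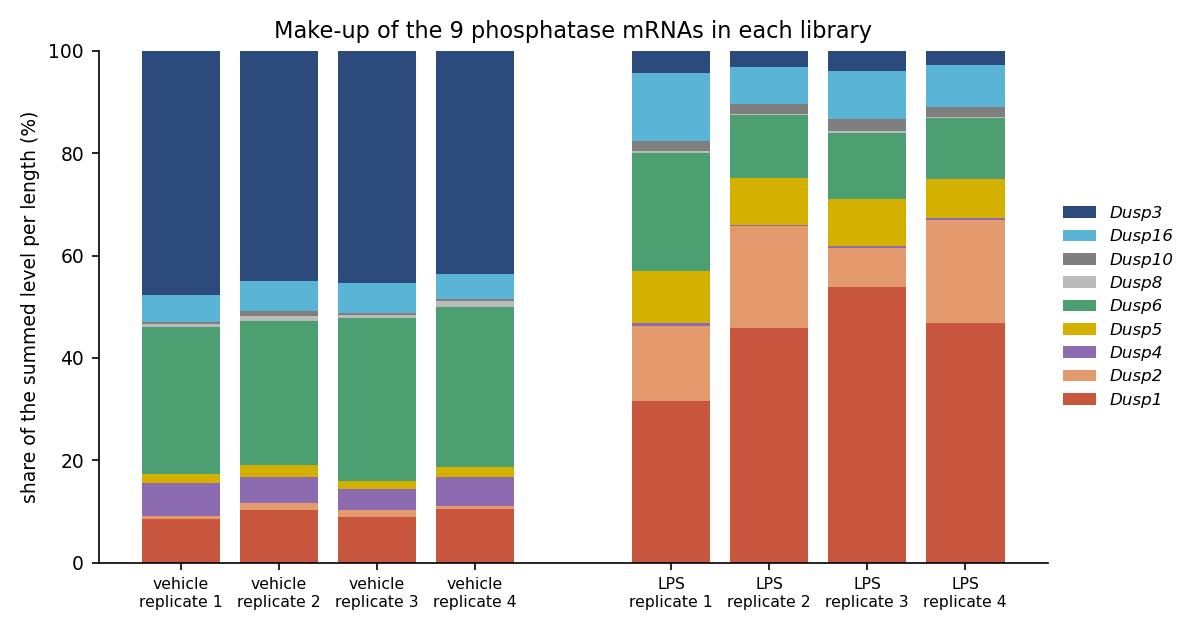
Share of each phosphatase in the summed level of the 9, in percent of CPM per kilobase, as 1 stacked bar per library. Dusp3 and Dusp6 fill most of the vehicle bars (45.4% and 29.9% on average), and Dusp1 is the largest part of every LPS bar (31.6% to 53.8%).

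Whether close relatives changed by different amounts was asked with the log2 ratio of their counts within each library, which does not depend on how libraries are scaled. For 6 pairs of relatives the LPS and vehicle ratios were compared by a two-sided exact permutation test over the 70 divisions of the 8 libraries, whose smallest p is 0.0286, with adjustment over the 6 pairs. Dusp1/Dusp4 went from 1.13 ± 0.330 (SD, n = 4) to 6.94 ± 0.714, a difference of 5.81 (SE 0.39, exact permutation p = 0.0286, adjusted p = 0.0343). Dusp4/Dusp5 went from 1.65 ± 0.317 to -4.24 ± 0.394, a difference of -5.89 (SE 0.25) with the same p-values. Dusp4 thus had more counts than Dusp5 in every vehicle library and fewer in every LPS library. Since Dusp4 fell and Dusp1 and Dusp5 rose, each without overlap between the groups, the smallest p was bound to result for both ratios. It adds nothing to the changes of the single genes.

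Dusp6/Dusp7 rose by 2.24 (SE 0.32) and Dusp8/Dusp16 fell by 2.24 (SE 0.27), each with an exact permutation p of 0.0286 (adjusted 0.0343) and with no overlap between the groups. Dusp1/Dusp2 went from 4.08 ± 0.601 to 2.31 ± 0.816, a difference of -1.77 (SE 0.51, exact permutation p = 0.0286, adjusted p = 0.0343), so that Dusp2 rose by more than Dusp1. The margin of that pair was narrow, with 3.55 in the lowest vehicle and 3.53 in the highest LPS library, and with 0.5 CPM added to each level in place of 0.5 counts the difference was -1.40 with an adjusted exact permutation p of 0.0857. Dusp10/Dusp16 differed by 1.21 (SE 0.34, exact permutation p = 0.0571), with groups that overlapped. Each of these 6 differences had the same direction in all 4 pairs of equal replicate number. With a block for the pairing (exact sign flips within the 4 pairs) p was 0.125 for every ratio, the smallest that 4 pairs allow.

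**Figure D5:**
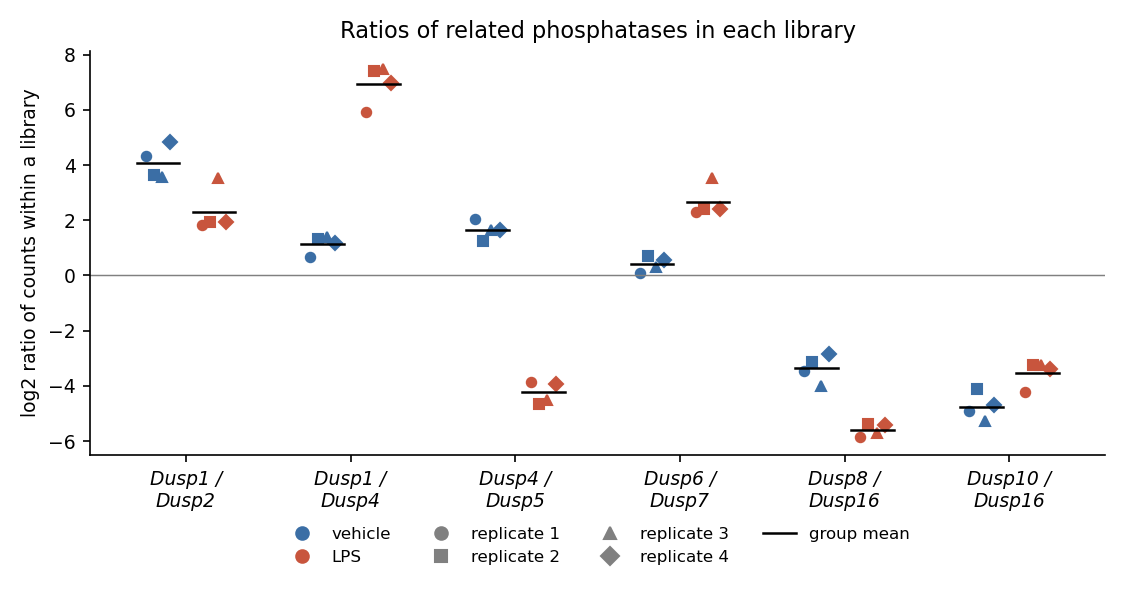
Log2 ratio of the counts of 6 pairs of related phosphatases within each library, with vehicle in blue, LPS in red, 1 symbol per replicate number and black lines for group means. Dusp4/Dusp5 turns from 1.65 to -4.24 on average, Dusp1/Dusp2 is lower in LPS with a narrow gap (3.55 against 3.53), and Dusp10/Dusp16 overlaps between the groups.

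The 3′ untranslated regions were searched for TATTTAT, the core of the AU-rich elements that mark short-lived mRNAs. Dusp1 held 3 in 690 bases, Dusp8 held 2 in 2370 bases and Dusp2 held 1 in 581 bases, and none was found in the other 6. Of 20745 genes with an annotated 3′ untranslated region 26.1% held at least 1. Genes with and without the letters were among both the large and the small rises, as Dusp5 and Dusp10 held none and Dusp8 held 2.

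The genes whose levels most resembled those of the largest rise and the largest fall were sought over the 8 libraries as a description, in which the gap between the groups weighs heavily. For Dusp2 they were Psmd4 (Pearson r of log2 CPM 0.997, and 0.965 for the deviations from the group means), which encodes a subunit of the proteasome, Gadd45b (0.997 and 0.896), a stress-inducible gene, and Psmc4 (0.997 and 0.884), a proteasomal ATPase. Psmd4 and Psmc4 rose far less than Dusp2, by 0.91 and 0.92 on the log2 scale, while Gadd45b rose by 4.81. For Dusp3 they were Smg6 (0.998 and 0.978), an endonuclease of nonsense-mediated decay, Bcl2l11 (0.998 and 0.961), which encodes the pro-apoptotic protein BIM, and Lipa (0.997 and 0.943), the lysosomal acid lipase. Bcl2l11 fell by 1.90 and Lipa by 2.50 on the log2 scale.

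The rest of the pathway was described with 9 lists of 102 genes, of which 86 were tested, 30 were higher and 22 lower (30.3% and 33.8% of all genes). Their median change was 0.044 on the log2 scale. Scaled to library totals alone 13 were higher and 48 lower. Up to 3 called genes with the largest change are named per list by rule, and further genes, chosen after their values were seen, are given where few were called or where a list split. Of 10 tested MAP kinases 5 were higher and 1 lower, but 0 and 6 with library totals. The lower one was Mapk14, the p38α kinase, which fell from 164 ± 14.4 to 99.5 ± 15.7 CPM (log2 -0.72, SE 0.13, edgeR adjusted p = 0.000787). Mapk8, which encodes JNK1, was at 14.8 ± 1.68 and 23.4 ± 4.51 CPM (0.66, adjusted p = 0.00412) and Mapk6, an atypical MAP kinase, at 101 ± 4.93 and 159 ± 35.7 CPM (0.65, adjusted p = 0.00398), but with library totals alone both were slightly negative (-0.031 and -0.047). Also higher were Mapk7 (ERK5, 0.85) and Mapk11 (p38β, 0.62), with library totals at 0.19 and -0.046. With the replicate block for the pairing Mapk11 was not called (adjusted p = 0.0726) and Mapk10, the neuronal JNK3, was lower (-1.42, adjusted p = 0.0113), which made 2 lower.

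Upstream, 2 of 7 MAP kinase kinases were higher and 1 lower (3 lower with library totals, and 4 higher without LPS replicate 3). Map2k1, which encodes the ERK kinase MEK1, rose from 150 ± 9.83 to 632 ± 60.2 CPM (log2 2.07, SE 0.12, edgeR adjusted p = 7.11e-07). Map2k4, a kinase of JNK, rose by 1.46 (SE 0.17, adjusted p = 4.61e-05), and Map2k5, the kinase of ERK5, fell by 0.77 (SE 0.10, adjusted p = 0.000111). Of 18 tested MAP3 kinases and partners 7 were higher and 6 lower, but 2 and 10 with library totals, and with the replicate block for the pairing 6 were higher. Map3k8, the kinase that links Toll-like receptors to ERK, rose from 29.1 ± 3.12 to 154 ± 15.8 CPM (2.40, SE 0.12, adjusted p = 3.95e-07), its partner Tnip2 rose by 1.13 (SE 0.10, adjusted p = 8.49e-06), and Map3k5, which encodes the stress kinase ASK1, fell by 1.16 (SE 0.24, adjusted p = 0.00197).

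Downstream, 3 of 10 MAP kinase-activated kinases were higher and 4 lower, with a median of -0.41. The lower count was 6 with the replicate block for the pairing and 7 with upper quartile normalization or library totals, where 1 was higher with library totals. Mapkapk2, the p38-activated kinase MK2, rose from 326 ± 47.5 to 963 ± 21.8 CPM (log2 1.56, SE 0.13, edgeR adjusted p = 7.62e-06). The paralogs Rps6ka4 and Rps6ka5, which encode the nuclear kinases MSK2 and MSK1, went opposite ways, by 1.02 (SE 0.21, adjusted p = 0.00202) and by -1.97 (SE 0.12, adjusted p = 8.9e-07). With library totals alone Rps6ka4 was at 0.37 and no longer passed the test. The third higher gene, Mapkapk5, was at 0.97 (adjusted p = 0.0213) and at 0.28 with library totals, and the other lower ones, the ribosomal S6 kinases Rps6ka1, Rps6ka2 and Rps6ka3, fell by 0.72, 0.71 and 0.56. Of 14 ERK-responsive genes 5 were higher and 6 lower. The higher count was 4 with upper quartile normalization and without vehicle replicate 2, 3 or 4 or LPS replicate 2 or 4. It was 6 without LPS replicate 3 and with DESeq2. The lower count was 5 without vehicle replicate 1 or 3 or LPS replicate 2 or 4, and 4 without vehicle replicate 4. The rises were led by Fosl1, a component of AP-1 (6.29, SE 0.42), Phlda1 (5.70, SE 0.33) and Ier3 (5.18, SE 0.38), with adjusted p-values of 1.71e-06, 8.08e-07 and 3.04e-06. The other higher ones were the immediate-early genes Egr1 (0.98, SE 0.14, adjusted p = 0.000186) and Ier2 (1.14, SE 0.40, adjusted p = 0.0287), at 0.31 and 0.51 with library totals and then not called. The 6 lower ones were the cyclin gene Ccnd1 (-2.94, SE 0.31, adjusted p = 2.93e-05), Fos (-1.91, SE 0.23, adjusted p = 6.49e-05), Egr2 (-1.84, SE 0.33, adjusted p = 0.000793), Egr3 (-1.11), Myc (-1.11) and Etv5 (-0.68).

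Among other brakes on the pathway, 5 of 10 tested genes passed the edgeR test upwards and 0 downwards, also at an unadjusted p under 0.05 and with DESeq2. With library totals 3 were higher and 2 lower, and 1 was lower with upper quartile normalization, with at least 10 counts in every library, and without LPS replicate 1 or 4. Spred3 and Spred2, which restrain Ras, rose by 2.07 (SE 0.21, adjusted p = 2.34e-05) and 1.33 (SE 0.13, adjusted p = 1.56e-05), and Ptpn7, a tyrosine phosphatase of MAP kinases in blood cells, rose by 1.68 (SE 0.32, adjusted p = 0.00126). The remaining higher ones were Spred1 (0.47) and the phosphatase Ppm1a (0.55), at -0.22 and -0.13 with library totals. With library totals 0 of the 8 tested scaffold genes were higher and 7 lower. With TMM scaling the higher one was Mapk8ip3 at 0.54 (SE 0.19, adjusted p = 0.0283) and the 2 lower ones were Sh3rf1 at -0.93 (SE 0.22, adjusted p = 0.0041) and Mapk8ip1 at -1.83 (SE 0.60, adjusted p = 0.0227). Mapk8ip3 did not pass without LPS replicate 1 or 2 or with upper quartile normalization and was at -0.13 with library totals alone. Mapk8ip1 did not pass without vehicle replicate 1, 2 or 4 or without LPS replicate 2, where 1 scaffold gene was lower. The lower count was 3 without LPS replicate 1 or 3, and 4 without vehicle replicate 3.

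The atypical dual-specificity phosphatases, small relatives without the kinase interaction domain, were split. Of 15 genes 8 were tested, 2 were higher and 2 lower (6 lower with library totals), with a median of -0.12. Dusp22, which encodes a phosphatase known as a regulator of JNK signalling, fell from 32.9 ± 5.90 to 5.74 ± 2.86 CPM (log2 -2.51, SE 0.33, edgeR adjusted p = 0.000117). The higher ones were Dusp28 at 1.65 (SE 0.20, adjusted p = 7.38e-05) and Dusp14 at 2.89 (SE 0.44, adjusted p = 0.000302). Dusp14 was near the floor, at 0.267 CPM on average in vehicle (5 to 9 counts per library) and 2.00 CPM in LPS libraries. With at least 10 counts required in every library it dropped out, and 1 gene of the list was higher. Dusp12 fell by 0.78 (SE 0.16, adjusted p = 0.00195).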

How the data were processed

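RNA of 8 libraries was analysed. Per gene, the authors deposited raw counts of reads that GSNAP placed at a single site of GRCm38, assigned with HTSeqGenie and not normalized. The labels and the methods name different library kits, and strand use and annotation release are not given in the sources used here. The 233 identifiers without a GENCODE vM21 symbol held 0.0155% of the counts.

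Counts were tested with edgeR 4.0.16 in R 4.3.3 (TMM, low counts removed by filterByExpr at a count of 10 and a total of 15, quasi-likelihood test, two-sided, Benjamini-Hochberg over 13847 genes, threshold 0.05). The fits were tested on simulated data. DESeq2 1.42.0 was an alternative. Exact tests were computed in Python 3.11.15 with scipy 1.17.1. Levels per length used the union of a gene's exons. No pair of libraries held identical or near-identical counts (lowest chi-square per degree of freedom within a group 6.98). Intervals cover counting error only.

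The members, lists, pairs and motifs were chosen with earlier results of these data known. Named genes are the 9 members, Dusp7, Dusp9, the 3 genes most like Dusp2 and Dusp3 each, and up to 3 genes per pathway list with the largest absolute change among called genes whose mean log2 CPM was 1 or more and whose groups did not overlap, with additions where the text says so. Some list genes count in the lists but are not reported singly here. Same-numbered vehicle and LPS libraries deviated together over 8382 genes (r of 0.363, 0.179, 0.177 and 0.110, all over 0.1). Vehicle 2 with LPS 4 (0.141) and vehicle 4 with LPS 2 (0.122) were also over 0.1. Of the 24 possible pairings the same-numbered one had the highest mean r (0.207). The numbers were therefore treated as pairs in an alternative with a replicate block. The other alternatives were other normalizations and filters, a stricter threshold, a minimum change, and leaving out each library. Library totals without normalization factors, and leaving out number 3 of both groups, whose libraries were lowest in oligodendrocyte precursor and neuronal markers, were chosen after seeing the data.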

Additional observations from a re-analysis of the deposited data

Results flagged for a closer look

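Within groups of 4 libraries, 1 library stood far from the others in 2 of 68 gene and group combinations looked at. These covered the members, Dusp7, Dusp9 and the pathway genes named by rule. Chance flags about 1 in 20. Mapk14 was at 123 CPM in LPS replicate 3 and between 90.0 and 92.6 CPM in the other 3 LPS libraries. Ier3 was at 706 CPM in LPS replicate 1 and between 365 and 412 CPM in the other 3. The low Dusp1 level of LPS replicate 1 (412 CPM against 867 to 991 CPM) did not reach the limit. Further genes named in the text were not part of this search, and single libraries also stood apart there. Mapk10 was at 0.793 CPM in vehicle replicate 3 and between 3.62 and 4.08 CPM in the other vehicle libraries. Rps6ka3 was at 169 CPM in LPS replicate 3 and between 132 and 137 CPM in the other LPS libraries.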

How the results depend on the processing

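Every member kept its direction under each of the 18 alternatives, and 7 of the 9 also kept their side of the threshold under each. The exceptions were Dusp8 with library totals (0.44, adjusted p = 0.15) and Dusp4 under a minimum log2 change of 1 (-0.99), which left 1 member lower. With library totals 1988 genes were higher and 8457 lower, and of the pathway genes 13 and 48. With the minimum change these counts were 2224 and 2998, and 15 and 9. Library totals turned Mapk8 (-0.031), Mapk6 (-0.047) and Mapk8ip3 (-0.13). The median of all genes shifted by -0.68 with library totals, -0.19 without a filter on low counts and -0.16 with upper quartile normalization, and by at most 0.1 otherwise. With the replicate block 4110 genes were higher and 4934 lower, 7 and 2 of them members. Exact sign flips within the pairing gave p = 0.125 for the ratios Dusp1/Dusp2 (-1.77), Dusp1/Dusp4 (5.81), Dusp4/Dusp5 (-5.89), Dusp6/Dusp7 (2.24) and Dusp8/Dusp16 (-2.24), and beside Mapk11 and Mapk10 the block changed no other call of a named gene. With 0.5 CPM added, Dusp1/Dusp2 was -1.40 (adjusted exact permutation p = 0.0857). The causes were not tested. Over the alternatives, the values of Dusp7 and of the pathway genes named by rule kept direction and call in 414 cases, lost the call in 12, gained it in 2 and turned in 3. Of the further genes named, Mapk11, Spred1 and Ppm1a turned and Egr1, Ier2, Mapkapk5 and Mapk7 lost their calls with library totals. Upper quartile normalization also removed the calls of Mapk11 (edgeR adjusted p = 0.114), Spred1 (0.0924) and Ier2 (0.0558). Mapk8ip1 lost its call without vehicle replicate 1, 2 or 4 or LPS replicate 2. The remaining alternatives are not listed for these further genes. Of the counts per list 263 stayed within 1.5 times and 61 did not. Fosl1 had no value where 10 counts were required in every library. With the length of the longest transcript all 9 members kept their place in both groups, but distances between neighbours changed. In vehicle Dusp16 was then at 6.85 ± 0.566 CPM per kilobase and Dusp4 at 4.41 ± 0.893. After LPS Dusp16 was at 73.3 ± 8.03, Dusp5 at 46.6 ± 5.96 and Dusp6 at 84.0 ± 11.9. The overlaps given above hold for the union of exons only. Counts were low for Dusp9 (4 in LPS) and for Dusp2 and Dusp10 in vehicle (30 to 66 and 29 to 63 per library). The SD of the vehicle libraries was 37.9% of the mean CPM for Dusp2 and 41.9% for Dusp10. After LPS, at 1835 to 4251 counts of Dusp2 and 363 to 915 of Dusp10 per library, it was 45.5% and 26.1%. The part of depth in this spread was not tested.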
